A study of Sus scrofa with 16 samples.

Results

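The data described here are the left ventricular transcript profiles of the 8 pigs of a 16-animal series that had a myocardial infarction (MI), taken as all arrays titled and labelled MI, with the control probe sets left out. They were examined for how far infarcted animals lay from one another, gene by gene, and for which genes moved together from animal to animal. All animals were 2 to 3 months old Yorkshire x Landrace swine, sampled 3 weeks after surgery, and no genetic change or drug is named for any of them. The infarcted animals were 4 females and 4 neutered males by their labels, with 1 Affymetrix porcine array each. The other 8 animals, again 4 females and 4 neutered males, had a sham operation and serve here for the spread of values only. The sources used here do not say where in the ventricle the tissue lay relative to the scar or how large each infarct was, so differences in sampling site and in infarct size cannot be told apart from other differences between animals.

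After an infarct the surviving ventricle works against a higher wall stress, and the damaged area is cleared by immune cells and replaced by collagen-rich scar. Cardiac muscle under stretch raises the natriuretic peptide gene NPPB, and activated fibroblasts deposit matrix proteins such as biglycan (BGN) and periostin (POSTN). Immediate early genes such as FOS are switched on within minutes of many stimuli, and their transcripts are short-lived. Aurora kinase A (AURKA) is a kinase of the mitotic spindle and marks dividing cells, which in the heart are mostly not cardiac muscle cells.

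Values are the deposited log2 signals, on which a difference of 1 is a 2-fold difference. The array held 23999 probe sets besides the 124 controls. Of these, 10069 carried 1 gene symbol and stood for 6765 genes, 5856 of them with an MI mean above 4.99, the highest value of control probe sets that have no target. Any 2 MI arrays correlated at r between 0.973 and 0.992 over the probe sets, a description of how alike the profiles were.

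Both MI 7 and MI 8 stood apart from the other infarcted animals in their control probe sets. Poly-A spike-ins are bacterial transcripts added to the RNA before labelling, and hybridisation controls are labelled transcripts added just before hybridisation. The poly-A signal lay below the hybridisation signal by a gap of -1.78 ± 0.26 log2 units (SD, n = 6; range -2.16 to -1.40) in MI 1 to MI 6. It reached -3.77 in MI 7 and -4.83 in MI 8. The first 6 animals are called set A and the last 2 set B. The sets were drawn from the controls alone at the widest break in the gap over all 16 arrays, and 3 sham arrays fell in set B. The labels name no batch, so what separated the sets was not tested. The actin control, whose 3′ minus 5′ signal grows as RNA is shortened or copied incompletely, read 2.68 ± 0.30 (n = 6) in set A and 1.54 and 1.51 in MI 7 and MI 8.

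MI 7 also went against its label. EIF1AY, a translation factor gene of chromosome Y, read 9.46 to 9.96 in MI 3 to MI 6, which are labelled male. It read 3.30, 3.00 and 3.51 in the animals labelled female MI 1, MI 2 and MI 8, below the background of 4.99, but 9.51 in MI 7, which is also labelled female. The animal is therefore called the array labelled female MI 7 wherever sex matters. The set contrast count, the labelled sex calls, the AURKA slopes and the SDs of some gene lists are given with and without it. Most other values include it, among them the set differences of single genes and gene lists.

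The largest pattern among the infarcted animals followed the spike-in sets. The first principal component held 40.5% of the variance over all probe sets and scored -14.0 ± 7.62 (SD, n = 6) in set A, against 42.2 in MI 7 and 41.8 in MI 8. An exact two-sided permutation test over the 28 splits of the animals gave p = 0.0357, the smallest it can give, and 0.0714 after Benjamini-Hochberg adjustment over 6 measures. The next 2 components held 14.2% and 12.4%, and neither kept the sets apart. In the median gene 30.7% of the variance lay between the sets, and in 2276 of 6765 genes it was more than 50%. In the median probe set it was 23.4%. Some variance lies between any 6 and 2 animals, and that share was not computed.

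**Figure D1:**
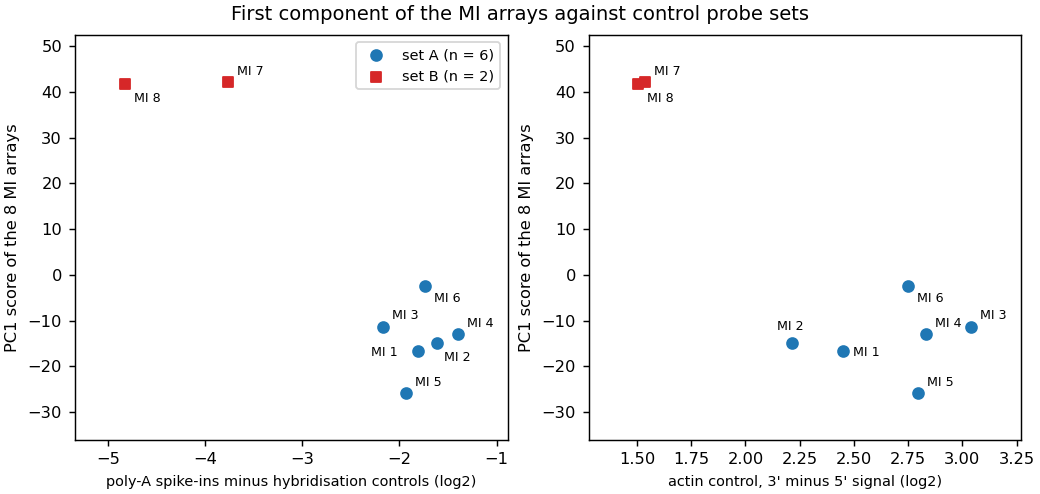
Score of each MI animal on the first principal component (vertical axis) against the poly-A minus hybridisation control signal (left panel, log2) and against the actin 3′ minus 5′ signal (right panel, log2). The 6 animals of set A (circles) score between -25.8 and -2.37, and MI 7 and MI 8 (squares) score 42.2 and 41.8 at the lower end of both control measures.

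Set B differed from set A in a large share of transcripts. limma with Benjamini-Hochberg adjustment called 3649 of 23999 probe sets, 15.2% of those tested, at an adjusted p under 0.05, with 2046 higher in set B (8.53%) and 1603 lower (6.68%). Among genes with a symbol, 726 were higher and 602 lower. The median size of a called difference was 0.60 log2 units, and 402 probe sets differed by at least 2-fold. The count fell to 1843 without MI 7 and to 1668 without MI 8, when set B is a single animal assumed to vary like those of set A. Both animals of set B are labelled female, and with labelled sex as a term 1933 probe sets were called.

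The genes named next had the lowest p in the set contrast, so that their sets do not overlap follows from this choice. PSMB3, a subunit of the proteasome, read 7.94 to 8.53 in set A and 5.93 and 6.17 in set B. The difference was -2.17 ± 0.16 (SE, limma adjusted p = 0.000286). PPP1CA, a catalytic subunit of protein phosphatase 1, read 7.85 to 8.30 in set A and 5.94 and 5.97 in set B. BLOC1S1, a subunit of a complex that shapes lysosome-related organelles, went the other way, with 8.15 to 8.60 in set A and 10.06 and 10.13 in set B. AKT1S1, a substrate of the kinase AKT, showed the same order, at 9.43 to 9.53 against 10.75 and 10.99. The other genes with the lowest p were KDM2A, WBP2, NFIC and PTOV1, which were higher in set B, and APPBP2, TMEM263, RABL3 and RAP1B, which were lower. Other probe sets of KDM2A (-0.19) and PTOV1 (0.12 and -0.00338) did not show the difference, whereas those of PPP1CA, NFIC, TMEM263, RABL3 and RAP1B did.

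Part of this pattern was also present among sham animals. The same contrast in the 8 sham arrays, 3 of set B against 5 of set A, called 1454 probe sets (6.06% of those tested), 813 higher in set B (3.39%) and 641 lower (2.67%). The 930 probe sets called in both groups made up 25.5% of the MI calls and 64% of the sham calls, and 925 of them ran in the same direction. Of the 3649 MI calls, 3360 (92.1%) had the same sign in sham animals. The share with the same sign over all probe sets was not computed. The groups share no array, but they share the sets, and what the overlap stems from was not tested.

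Gene lists moved with the sets to different degrees. Of 36 measured genes for the proteasome and ubiquitin enzymes, 11 were lower in set B and 1 was higher, against 602 lower and 726 higher of all 6765 genes. FBXO32, the muscle ubiquitin ligase atrogin-1, was the 1 that was higher, at 12.09 and 12.14 in set B against 9.60 to 10.71 in set A (1.96 log2 units, adjusted p = 0.00282). Of 22 genes for glycolysis and glucose uptake, 6 were higher in set B, led by the glycogen synthase gene GYS1 (7.70 to 8.03 in set A, 9.05 and 9.26 in set B), and LDHA, which makes lactate, was lower by 0.58. Of 30 citric acid cycle and pyruvate genes, 4 were higher, led by OGDH (9.35 to 9.85 against 10.81 and 10.83). GYS1 and OGDH were also higher in set B among sham animals, by 0.79 (adjusted p = 0.0296) and 0.78 (adjusted p = 0.0122). Stress and fetal heart genes counted 6 higher of 18, with XIRP1, TNNI1 and the intermediate filament gene DES up by 1.24, 1.16 and 0.85. Sarcomere genes counted 6 higher of 22. No member of either list was lower. By contrast, 2 of 53 oxidative phosphorylation genes were higher and 2 lower, and no cytosolic ribosomal protein gene was higher while 2 of 58 were lower. Most of these counts were smaller in the sham arrays, where fewer probe sets passed. There 1 proteasome and ubiquitin gene was lower in set B and none higher, and no sarcomere gene passed. Stress and fetal heart genes counted 2 higher and 1 lower there, glycolysis genes 4 higher and citric acid cycle genes 1 higher.

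Apart from the sets, most genes varied little among infarcted animals, and a few varied a great deal. The median gene had an SD of 0.198 log2 units over the 8 animals, 0.151 over the 6 of set A and 0.204 over the 8 sham animals. An SD above 0.5 was reached by 364 of 6765 genes (5.38%) and an SD above 1 by 24. Of the 20 genes above background with the largest SD, 14 were also in the top 20 of set A alone, 2 differed between the sets (PSMB3 and SERPINE2), and 16 had a smaller SD among sham animals. Immediate early genes made up 6 of the 20: FOS, ATF3, CYR61, NR4A3, BTG2 and EGR1.

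FOS, a subunit of the AP-1 transcription factor, had the largest SD of any autosomal gene above background, 2.37. It read 6.99, 7.20, 8.97 and 6.89 in MI 1 to MI 4, 11.39 in MI 5, 6.30 in MI 6, 12.35 in MI 7 and 6.27 in MI 8, so that the highest animal held 67.7 times the signal of the lowest. The high values thus fell on 1 animal of each set, and MI 7 and MI 8 lay at opposite ends. ATF3, a stress-induced transcription factor, was high in a different animal: 10.54 in MI 4 against 5.28 to 7.64 in the others. CYR61, a matrix-associated protein induced by stretch, peaked in MI 4 (10.92) and MI 7 (10.27) and read 6.79 to 8.56 elsewhere. NR4A3, an orphan nuclear receptor, peaked in MI 3 (9.47) and MI 6 (8.94) and read 5.63 to 7.25 elsewhere, with FOS at 6.30 in the same MI 6. A second NR4A3 probe set, with a mean below background (4.72, SD 0.82), did not follow it (r = -0.16 over the 8 arrays). EGR1, a zinc finger factor, ran from 5.93 in MI 1 to 9.50 in MI 7. FOS, ATF3 and CYR61 were thus highest in different animals, MI 7 for the first and MI 4 for the other two.

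**Figure D2:**
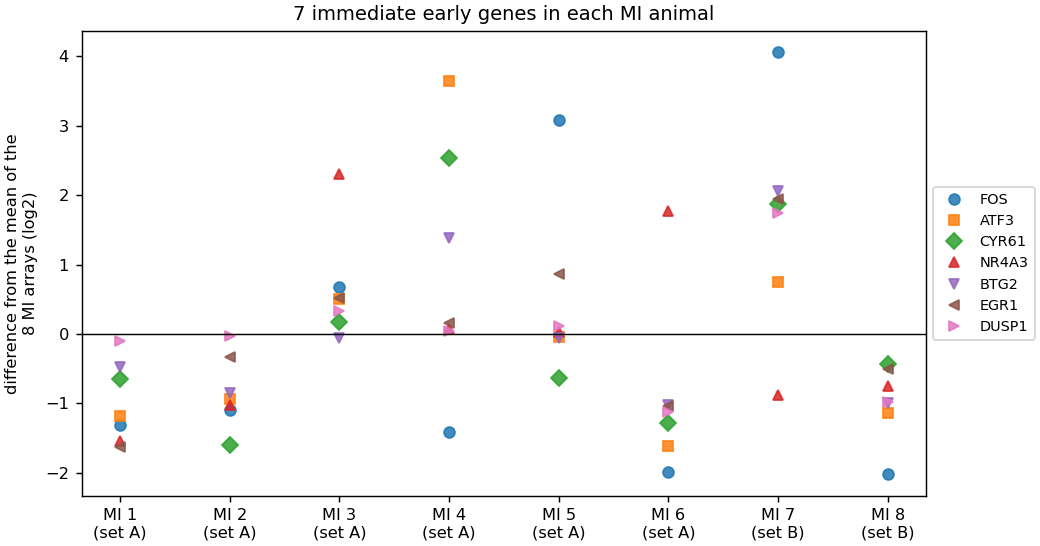
Difference of each of 7 immediate early genes from its own mean over the 8 MI arrays (vertical axis, log2) in each MI animal (horizontal axis, with its spike-in set). MI 7 lies above the mean in all shown but NR4A3, while the highest ATF3 and CYR61 points belong to MI 4 and the highest NR4A3 point to MI 3.

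As a list, the immediate early genes had a median SD of 0.652, against 0.198 over all genes, and 18 of the 25 measured exceeded 0.5. In set A alone their median SD was 0.471, against 0.151, and without MI 7 it was 0.534 with 13 of 25 above 0.5. MI 7 was above the mean in 21 of 25 genes and the highest animal in 15. It was highest in 4078 of all 23999 probe sets. The median deviation of the list was 0.64 in MI 7, and it was -0.40 in MI 8, -0.39 in MI 6 and -0.33 in MI 2. Against the sets, 3 of 25 genes were higher in set B and 1 lower, near the share of all genes (726 higher and 602 lower of 6765), and the median gene had 13.2% of its variance between them, compared with 30.7% over all genes. Among the other named members, DUSP1, a phosphatase that switches off MAP kinases, read 12.21 in MI 7 and 9.33 to 10.79 elsewhere. NR4A2 read 6.63 in MI 7 and 5.30 in MI 8, above the 4.55 to 4.83 of set A, where it was below background.

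Interferon response genes also varied widely. Their median SD was 0.586 (0.487 in set A alone), and 14 of 18 measured genes exceeded 0.5, also without MI 7. The count was 10 of 18 without MI 5 and 11 of 18 without MI 8. RSAD2, the antiviral protein viperin, read 9.99, 8.78, 9.47, 10.32, 10.41 and 10.21 in MI 1 to MI 6, 8.58 in MI 7 and 7.91 in MI 8. ISG15, a ubiquitin-like modifier, followed the same order, from 8.63 in MI 2 and 9.46 to 10.21 in the other animals of set A to 8.35 and 7.93 in MI 7 and MI 8. The list lay highest in MI 5, where all 18 genes were above their mean (median deviation 0.76), followed by MI 1 (0.45), MI 6 (0.37) and MI 4 (0.25). It lay lowest in MI 8 (-0.77), MI 7 (-0.55) and MI 2 (-0.50), so that MI 2 was low within set A too. All of these are labelled female, as is MI 1. With the set as a term, 1 of the 18 genes was higher in labelled females (median difference -0.31). By limma 2 were lower at an unadjusted p under 0.05, against 381 of 23999 probe sets, and 0 at an adjusted p under 0.05.

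The set contrast called 7 of these 18 genes, all lower in set B, against 602 lower and 726 higher of all 6765 genes: RSAD2, ISG15, IFIT1, DDX58, IFIT2, IFIT3 and EIF2AK2. They encode antiviral effectors and sensors of foreign RNA. The differences ran from -1.62 (RSAD2, adjusted p = 0.0251) to -1.05 (EIF2AK2, adjusted p = 0.0197), with IFIT1 at -1.43 (adjusted p = 0.00156). In the sham arrays none of the 18 passed, and the set difference was -0.09 for RSAD2, -0.12 for ISG15 and -0.27 for IFIT1. Whether the set contrast differs between infarcted and sham animals was not tested. The guanylate-binding protein genes GBP1 and GBP2, which respond mainly to interferon gamma, were also highest in MI 5 (11.47 and 9.55), ahead of MI 1 (10.52 and 8.64).

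**Figure D3:**
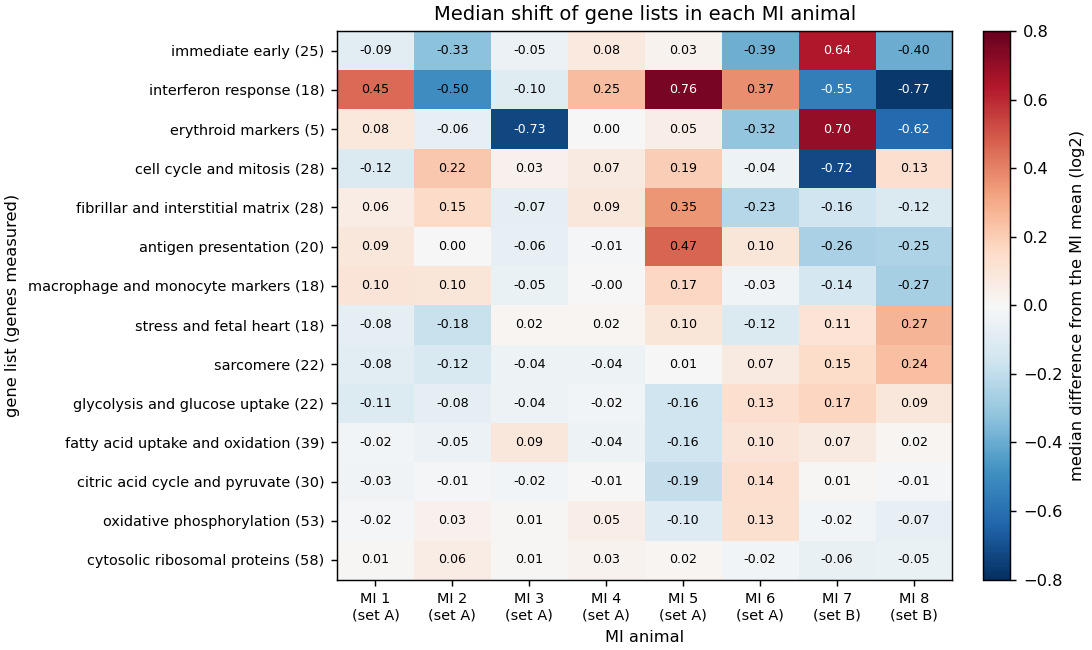
Median difference of each gene list from the MI mean (colour and printed value, log2) in each of the 8 MI animals (columns), with the number of genes measured beside each list name. Immediate early genes are highest in MI 7 (0.64), cell cycle genes are lowest there (-0.72), interferon response and antigen presentation genes are highest in MI 5 (0.76 and 0.47), and ribosomal protein genes stay between -0.06 and 0.06.

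Antigen presentation genes varied less (median SD 0.348, 0 of 20 above 0.5) but also peaked in MI 5, with 18 of 20 genes above their mean and 11 at their highest there. Of all 23999 probe sets, 3197 were highest in MI 5. TAP1, which carries peptides to class I molecules, read 9.55 in MI 5 and 8.09 to 8.53 in the others. Of the 20 genes, 5 were lower and 1 higher in set B, where 602 of all 6765 genes were lower and 726 higher. Class II genes were among the lower ones: SLA-DRB1 by 0.89 (adjusted p = 0.00484), SLA-DQA1 by 0.78 and SLA-DRA by 0.74. Of 18 macrophage and monocyte markers, 5 were lower in set B (FCGR1A, FCGR3A, CD86, VSIG4 and TYROBP) and none was higher. In the sham arrays 1 antigen presentation gene was lower in set B and 2 were higher, and 1 macrophage and monocyte marker was higher and none lower. Fewer cells of a type and less RNA per cell cannot be told apart in such bulk tissue. FCGR3A, an antibody receptor of macrophages and natural killer cells, read 9.75 to 10.27 in set A and 9.22 and 9.0 in set B. The T and NK lymphocyte markers had a median SD of 0.185, below that of all genes, with 2 of 13 lower in set B.

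Cell division genes were nearly level in 7 animals and low in 1. AURKA read 6.08 to 6.27 in set A and 6.04 in MI 8, and 5.13 in MI 7. Its SD was 0.37 over the 8 animals and 0.08 in set A. UBE2C, a ubiquitin-conjugating enzyme of mitotic exit, read 6.05 in MI 7 and 7.64 to 8.03 in the others. CCNB1, the cyclin that starts mitosis, read 5.44 in MI 7 and 7.35 to 7.95 in the others. MI 7 was thus far from every other animal in all 3 genes, while MI 8 had the highest UBE2C and CCNB1. A second AURKA probe set, close to background at a mean of 5.16, varied less (SD 0.15) and correlated with the one shown at r = 0.594 over the 8 arrays.

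Of the 28 cell cycle and mitosis genes measured, 21 were lowest in MI 7, against 4176 of all 23999 probe sets, and 2 were above their mean there. A Dixon ratio (the gap from the most extreme animal to its nearest neighbour, over the whole range) above the 95% critical value was found in 12 of 28, against 1863 of 23999 probe sets (7.76%). The median SD of the list was 0.381 with 6 of 28 above 0.5. Without MI 7 it was 0.21 with 0 of 28, close to the 0.194 of set A alone. RRM2, a ribonucleotide reductase subunit needed for DNA synthesis, ran from 4.87 in MI 7 to 7.49 in MI 8. GPX1, a glutathione peroxidase outside this list, had a like profile, at 8.31 in MI 7 and 10.41 to 11.49 in the others. The lower cell division signal of MI 7 came with its high FOS signal and its Y transcript, and a part of any of these in the others was not tested.

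**Figure D4:**
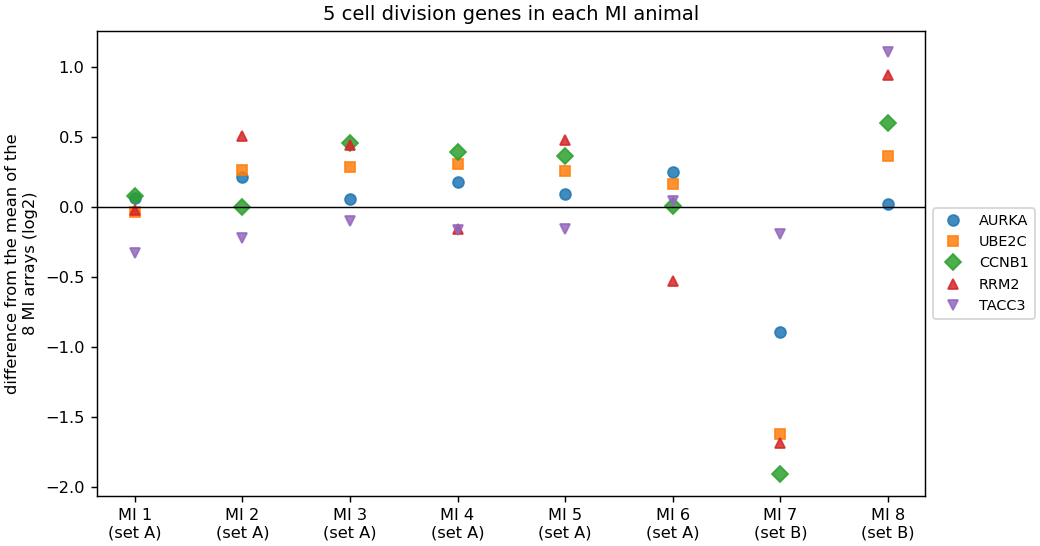
Difference of each of 5 cell division genes from its own mean over the 8 MI arrays (vertical axis, log2) in each MI animal (horizontal axis, with its spike-in set). AURKA, UBE2C, CCNB1 and RRM2 are lowest in MI 7, whereas TACC3 is high in MI 8 and near its mean in MI 7.

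Some matrix genes, BGN among them, stood out in MI 5. BGN read 8.93 to 9.27 in 7 animals and 10.01 in MI 5, a highest-to-lowest ratio of 2.12. CILP, a matrix protein made by cardiac fibroblasts, read 10.79 in MI 5 and 8.06 to 8.94 in the others. TNC, a matrix protein of wound repair, read 6.73 in MI 5 and 4.67 to 5.72 in the others, where the lowest value was below background. POSTN did not follow these genes: it was highest in MI 4 (10.24), read 9.60 in MI 5, and was lowest in MI 6 (8.95), with 9.39 in MI 8 and 9.88 to 9.94 in the other 4.

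The 28 fibrillar and interstitial matrix genes had a median SD of 0.343 in infarcted animals and 0.448 in sham animals, with 3 of 28 above 0.5 (CILP, TNC and LOXL1). Without MI 5 none of the 28 exceeded 0.5, and the median SD was 0.319. MI 5 was highest in 12 of 28 and MI 2 in 7, while MI 6 was lowest in 10. Over all 23999 probe sets these counts were 3197, 2572 and 2798. MI 2 lay above the mean in 21 of 28 and MI 5 in 20, and 3 of 28 had a Dixon ratio past the critical value. Their median deviation was 0.35 in MI 5 and -0.23 in MI 6. The sets shifted single members in both directions: the small proteoglycans LUM and ASPN were lower in set B by 0.86 and 0.68, and the collagen genes COL5A1 and COL6A2 were higher by 0.73 and 0.72 (adjusted p = 0.0117 and 0.00183).

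NPPB, which encodes B-type natriuretic peptide, had the largest SD of the 18 stress and fetal heart genes. It read 7.0, 8.25, 9.95, 9.02, 10.44 and 7.98 in MI 1 to MI 6, and 7.35 and 8.87 in MI 7 and MI 8. The SD was 1.20 over 8 animals, 1.28 in set A and 0.995 among sham animals, and the highest animal held 10.8 times the signal of the lowest. The sets overlapped fully (difference -0.67, adjusted p = 0.65 by limma). NPPA, the atrial peptide gene, varied less, from 8.16 in MI 5 to 9.01 in MI 8, so the animal with the most NPPB had the least NPPA. RCAN1, an inhibitor of calcineurin that calcineurin itself induces, was highest in MI 3 (11.42) and MI 5 (11.36), the same pair that led in NPPB, and read 9.86 to 10.56 elsewhere.

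**Figure D5:**
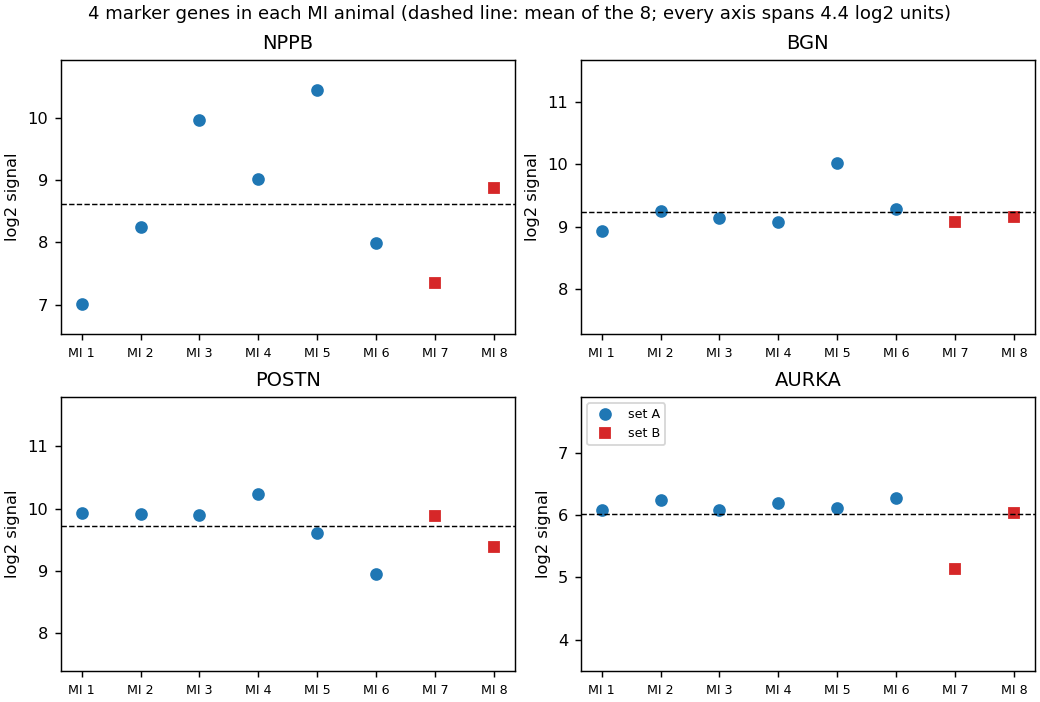
log2 signal of NPPB, BGN, POSTN and AURKA (vertical axes, all spanning the same number of log2 units) in each MI animal (horizontal axis), with set A as circles, set B as squares and the mean of the 8 as a dashed line. NPPB spreads from 7.0 to 10.44, BGN stands out in MI 5 (10.01), POSTN is lowest in MI 6 (8.95) and AURKA in MI 7 (5.13).

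Metabolic genes varied far less than the immediate early and interferon genes. The median SD was 0.125 for 53 oxidative phosphorylation genes, with 0 above 0.5, 0.183 for 30 citric acid cycle genes, 0.216 for 39 fatty acid genes and 0.247 for 22 glycolytic genes, against 0.198 over all genes and 0.0838 for 58 cytosolic ribosomal protein genes. Even so, MI 5 lay lowest in 24 of the 53 oxidative phosphorylation genes and MI 6 highest in 30. Of all 23999 probe sets these were 3727 and 3507. The median deviations of the 53 genes were -0.10 and 0.13. Fatty acid genes gave -0.16 and 0.10, and citric acid cycle genes -0.19 and 0.14, in the same 2 animals. PDK4, the kinase that closes pyruvate dehydrogenase when fat is burned, had the largest SD of the fatty acid list (0.56) and was lowest in MI 6, at 10.86 against 11.72 to 12.62. ECHS1, an enzyme of the fatty acid spiral, read 10.93 in MI 5 and 11.24 to 12.30 elsewhere. Set A holds both MI 5 and MI 6, so their contrast does not follow the spike-in sets.

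Transcripts of red cells varied as well, though few were measured. ALAS2, the heme synthesis enzyme of erythroid cells, ran from 6.23 in MI 3 to 8.61 in MI 2, with 8.57 in MI 7. AHSP, the chaperone of alpha globin, ran from 4.68 in MI 8 to 6.70 in MI 7, and the globin gene HBM from 6.29 in MI 3 to 8.30 in MI 4. The same 3 genes, of 5 measured, exceeded an SD of 0.5 (0.87, 0.69 and 0.68), while HBB was level at 7.97 to 8.36. Their SDs among sham animals were 0.31, 0.23 and 0.22. The amount of blood in each sample was not measured, and its part in the other differences was not tested.

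The markers of stress, matrix and cell division did not rank the animals alike. NPPB and BGN gave Pearson r = 0.672 over 8 animals (exact permutation p = 0.039) and Spearman rho = 0.548 (exact permutation p = 0.171). Adjusted over the 20 relations computed, these became 0.78 and 0.657. Within set A r was 0.675 (exact permutation p = 0.119). Without MI 1 and MI 5, the animals farthest from the median NPPB, r was -0.18 over both sets and -0.766 within set A. Leaving out those 2 animals also narrows the range of NPPB, so this fall cannot show by itself what the relation rests on. Over both sets r was 0.6 without MI 1 alone and 0.348 without MI 5 alone. BGN and POSTN gave r = -0.307 (exact permutation p = 0.413) and rho = -0.619 (exact permutation p = 0.115), and NPPB and POSTN gave r = 0.00291 (exact permutation p = 0.995). In set A no marker followed the spike-in gap or the actin measure at an exact permutation p under 0.05: the closest were AURKA with the gap (r = 0.695, exact permutation p = 0.132) and NPPB with actin (r = 0.656, exact permutation p = 0.165).

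Across all genes, slopes on the 4 markers were then fitted with the spike-in set as a term. limma called 0 probe sets (0%) for each of NPPB, BGN, POSTN and AURKA at an adjusted p under 0.05. At an unadjusted p under 0.05 it counted 1044, 1204, 1624 and 2036 probe sets, and the lowest adjusted p was 0.579, 0.245, 0.666 and 0.218. The slopes are therefore a description, with no gene shown to follow a marker. A slope is the log2 change of a gene per log2 unit of the marker.

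Along NPPB the lowest p belonged to ELOVL6, a fatty acid elongase (slope 0.41 ± 0.05 SE, limma adjusted p = 0.579). It read 5.43 in MI 1 and 6.87 in MI 5, the animals with the least and the most NPPB. Another ELOVL6 probe set above background (mean 5.45, SD 0.15) did not follow the one shown (r = -0.22). Those with means of 4.78 and 4.04, below background, gave r = 0.467 and 0.479. SAMD4A and DKK3 had slopes of 0.34 and 0.28. On the negative side stood APOD, a lipocalin (slope -0.44), FMO1, a flavin monooxygenase (-0.37), and AGTR1, the type 1 angiotensin receptor (-0.28). FMO1 read 11.10 in MI 1 and 9.51 in MI 5. Of 17 other stress genes, 4 had a positive slope at an unadjusted p under 0.05 and 0 a negative one: RCAN1, FHL1, XIRP1 and ANKRD1, with slopes of 0.33, 0.16, 0.28 and 0.13. Over all genes the counts were 142 positive and 124 negative of 6764. The 4 became 2 without MI 2, without MI 5 or without MI 6.

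Along BGN the slopes described MI 5. CILP (2.09), TAP1 (1.33), C2CD2 (1.39) and FBLN1 (0.69) had the lowest p among positive slopes, and MYLIP (-1.02), MAT2B (-1.28) and the fatty acid isomerase gene ECI2 (-0.73) were among the negative ones. At an unadjusted p under 0.05, 8 of 20 antigen presentation genes and 6 of 27 matrix genes had positive slopes, and 6 of 53 oxidative phosphorylation and 5 of 39 fatty acid genes had negative ones. Over all 6764 genes the counts were 218 and 164. Without MI 5 these became 0 of 20, 2 of 27 with 3 negative, 0 of 53 and 0 of 39.

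Along POSTN, 9 of 25 immediate early genes had positive slopes at an unadjusted p under 0.05, against 207 of 6764 genes, among them KLF4 (1.02), CYR61 (2.34) and ATF3 (2.95). In set A alone the counts were 5 of 25 and 240 of 6764. Among the genes with the lowest p, ECHDC1 (0.92) and BIVM (0.93) had positive slopes, and SEPT6 (-1.36) and ALAD (-0.66) had negative ones.

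Along AURKA, 20 of 27 other cell cycle genes had positive slopes at an unadjusted p under 0.05 (median 0.86), and 14 of 25 immediate early genes had negative ones (median -1.26), against 334 positive and 252 negative of 6764 genes. UBE2C (2.05) and CCNB1 (2.44) led the first, and DUSP1 (-3.10) the second. In set A alone, which is also the fit without MI 7 or without MI 8, 1 of 27 cell cycle genes had a positive slope at that level, the median slope of the list was 0.0356, and the slope of CCNB1 turned to -1.42. The cell cycle slopes thus rest on MI 7 against MI 8. For the immediate early genes 4 of 25 had a negative slope at that level in set A alone, with a median slope of -1.40. Over all 6764 genes the set A counts were 322 positive and 313 negative. AURKA ran only from 6.08 to 6.27 in set A (SD 0.08), so slopes per log2 unit there reach far beyond the values measured.

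Labelled sex was the only other label within the group. limma with the spike-in set as a term called 0 of 23999 probe sets (0%) for females against males, with 824 at an unadjusted p under 0.05. Without the array labelled female MI 7, whose Y transcript reads as in males, limma called 11 probe sets, 5 of them higher in females, and EIF1AY was lower by 6.53 log2 units in females (adjusted p = 2.74e-06, against 1 with all arrays). With the set as a term the same fit results without MI 8, because the single array then left in set B is taken up by that term. It is the fit of set A, with 2 females and 4 males. KDM6A, an X-linked histone demethylase, was 0.78 higher and ZFX, an X-linked transcription factor, 1.14 lower in females with all arrays, each with an adjusted p of 1. Both values count the array labelled female MI 7 among the females. Another ZFX probe set above background (mean 6.12) was nearly level (SD 0.108) and correlated with the one shown at r = 0.419 over the 8 arrays. One below background (mean 4.19) gave r = 0.342.

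The spread among infarcted animals was last set against that among sham animals, through each array's absolute deviation from its group mean. limma called 0 of 23999 probe sets (0%), with 1625 at an unadjusted p under 0.05 and a lowest adjusted p of 0.537. On simulated data this test recovered only 2 of 100 genes whose SD was raised 4-fold and 3 of 100 raised 8-fold, so the count of 0 says little. The median SD was 0.652 in infarcted against 0.357 in sham animals for immediate early genes, 0.586 against 0.394 for interferon response genes and 0.679 against 0.230 for erythroid genes. At an unadjusted p under 0.05, 5 of 25, 5 of 18 and 3 of 5 of these genes were wider in infarcted animals and none was narrower, against 215 wider and 216 narrower of 6765 genes. Of 29 cytokines and chemokines, 1 was wider and 4 narrower, with a median SD of 0.194 in infarcted and 0.299 in sham animals. For 28 fibrillar matrix genes and for 34 chaperone genes the counts were 0 wider and 2 narrower each. Counts this small do not set these 2 lists apart from all genes. Their median SD was 0.343 against 0.448 in sham animals for the matrix genes, but 0.219 against 0.195 for the chaperone genes. Among named genes, PLIN2, a coat protein of lipid droplets, had an SD of 0.46 in infarcted and 0.17 in sham animals, and the matrix protein gene MFAP2 had 0.21 and 0.63 (limma adjusted p = 0.537 and 0.585).

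The 4 markers lie, on the pig assembly Sscrofa11.1 in RefSeq, at chr6:71930374-71931843 (NPPB), chrX:124282048-124295450 (BGN), chr11:13225183-13258973 (POSTN) and chr17:56954838-56972435 (AURKA). FOS lies at chr7:98449508-98451971 and EIF1AY at chrY:9687350-9704489. The spans are whole genes, exons and introns included, and which exon each probe set reads was not examined here.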

How the data were processed

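One array per animal measured left ventricular RNA, prepared, per the labels' protocols, from frozen crushed myocardium by Trizol and column clean-up and labelled with biotin. The deposited values are log2 signals, judged from their range of 2.87 to 14.9 and an equal median (6.24) on all arrays. No source used here gives the authors' summary method or normalization, and the values were used as deposited. Equal medians mean that a shift shared by most genes could not be seen.

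Fits used R 4.3.3 and limma 3.58.1 (lmFit, eBayes), two-sided, over 23999 probe sets with Benjamini-Hochberg adjustment and a threshold of 0.05; figures used matplotlib 3.10.9. Slopes and labelled sex carried the spike-in set as a term. With 8 arrays the number of animals limits the precision. The labels call these separate animals, so the p-values measure the spread between animals. Symbols came from the array's annotation: 198 probe sets with several symbols and 13732 with none were not named, and where a gene had several probe sets the one brightest on average over the 16 arrays was taken. Positions were matched for 156 of 159 named genes.

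Named genes were the 4 markers, the 20 largest SDs, the 2 largest SDs of each of 41 lists, and the lowest p-values of each direction: 5 for each marker and for spread, 6 for set and for sex, all above background. List members named beside a count, and NPPA, are further members of those lists chosen after their values were seen. The members and lists were chosen with earlier results of these data known. On simulated data, differences of 1 log2 unit were recovered in 68 of 100 genes for the set, 59 for sex, and for a change of 1 per marker SD in 96 (NPPB), 97 (BGN), 95 (POSTN) and 88 (AURKA). Alternatives covered normalization, an offset, background, a trended robust fit, terms, stricter thresholds and leaving out each animal. No group means of infarcted and sham animals were compared.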

Additional observations from a re-analysis of the deposited data

Results flagged for a closer look

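Of the 159 named genes, 23 (14.5%) had 1 infarcted animal farther from the other 7 than Dixon's 95% critical value allows, judged by the gap to the nearest animal as a share of the whole range. Over all 23999 probe sets the share was 7.76%. Chance alone gives about 1 in 20 such groups, and genes named for a large SD or a low p are more prone to it. MI 7 was the animal that stood apart in 8 of them. It was low for AURKA (0.8), UBE2C (0.799), CCNB1 (0.761), GPX1 (0.66) and DDX20 (0.593), and high for HSP70.2 (0.632), the chemokine gene CXCL2 (0.628) and RYBP (0.563).

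MI 5 stood apart in 7. It was high for TAP1 (0.701), BGN (0.68), CILP (0.677) and TRAM2 (0.592), and low for the adipocyte gene CFD (0.705), MYLIP (0.658) and the metallothionein gene MT3 (0.567). MI 8 was high for TACC3 (0.738) and low for RGS4 (0.657), the mast cell gene MS4A2 (0.583) and HES1 (0.557). MI 4 was high for BDNF (0.561) and ATF3 (0.551), MI 6 was low for ECHDC1 (0.698), and MI 2 was high for SETDB1 (0.54). No such value was found for MI 1 or MI 3. BGN, TAP1, CILP, TRAM2 and MYLIP were named for their slope on BGN or as BGN itself, so they are 1 pattern, and AURKA, UBE2C, CCNB1, TACC3, DDX20, HSP70.2, RYBP, RGS4 and HES1 likewise share AURKA. What sets these animals apart was not tested.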

How the results depend on the processing

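Directions and calls of named genes held in 1248 of 1260 combinations of gene and alternative, and 1635 of 1749 recomputed SDs of named genes stayed within 1.5 times. In set A alone 55 of the 159 SDs moved further. The 1248 say little for slopes, sex and spread, where 0 probe sets were called from the start. Those genes were also picked by their lowest p in these same data. For slopes and sex, the fits without MI 7, without MI 8 and in set A alone are the same fit. The set contrast counted 3649 probe sets, 1339 at an adjusted p under 0.01, 1933 with labelled sex as a term, 1454 in the sham arrays instead (added after seeing the data) and 1668 to 4101 when 1 animal was left out. Slopes on BGN counted 0 to 2 calls without 1 animal (2 without MI 1), and slopes on AURKA 9 with no set term, UBE2C among them (1.73). Labelled sex gave 0 to 11 calls without 1 animal (1 without MI 3, 11 without MI 7 or MI 8) and 11 in set A alone. The spread comparison gave 2 calls in set A alone and 2 with deviations from the mean of group and set (added after seeing the data). In the AURKA slopes, CCNB1 turned to -1.42 and HSP70.2 to 0.31 in set A alone, and without 1 animal they ranged from -1.42 to 2.57 and from -1.9 to 0.31, turning without MI 7 or MI 8. In the spread comparison SETDB1 turned to 0.0189 in set A alone and SF3B1 to 0.00676 with group and set means.

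The correlation of NPPB and BGN was 0.675 in set A alone, past no threshold, and 0.348 to 0.824 without 1 animal (lowest without MI 5). That of NPPB and POSTN turned to -0.00199 after quantile normalization and ranged from -0.264 to 0.142 without 1 animal. NPPB and AURKA gave -0.302 in set A alone and -0.271 to 0.475 without 1 animal, BGN and AURKA -0.0429 in set A alone, and POSTN and AURKA -0.345 to 0.0449 without 1 animal. Causes of these changes were not tested. Replicate numbers are shared by MI and sham titles, but nothing states that they pair animals. With the replicate block the spread comparison again gave 0 calls, with 1721 at an unadjusted p under 0.05. Signals under 4.99 cannot be told from background, and with 2 arrays in set B its own spread is poorly known.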

Other observations

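Several other genes among the 20 with the largest SD belonged to none of the groups described so far. RGS1, a regulator of G protein signalling found in leukocytes, read 8.39 in MI 5 and 7.28, 7.21, 6.82 and 6.33 in MI 2, MI 7, MI 3 and MI 1, and 4.12 to 4.62, below background, in MI 4, MI 6 and MI 8. CES1, a carboxylesterase, was high in MI 3 (8.72), MI 1 (7.39) and MI 2 (7.35) and read 5.70 to 6.05 in the other 5 animals. KRT8, a keratin of epithelial and mesothelial cells, was highest in MI 8 (8.57) and MI 5 (7.87) and read 5.56 to 6.77 elsewhere. SERPINE2, a protease inhibitor, ran from 6.49 in MI 7 to 10.47 in MI 5. RSF1, a chromatin remodelling factor, read 7.79 in MI 3 and 9.02 to 11.15 elsewhere on the probe set shown, but its 2 other probe sets were nearly level (SD 0.118 and 0.125) and did not follow it (r = -0.147 and -0.521). BDNF, a neurotrophin, was high in MI 4 alone (8.12 against 4.80 to 6.26), the animal with the most ATF3.

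Chaperone genes were mostly level, with a median SD of 0.219 over 34 measured genes and 2 above 0.5, against 0.198 over all genes. HSP70.2, an inducible heat shock protein gene, read 11.42 in MI 7, 9.63 in MI 8 and 9.94 to 10.29 in set A, the same order of MI 7 over MI 8 as in FOS. HSPB7, a small heat shock protein of cardiac muscle, was instead high in both arrays of set B (12.27 and 12.58 against 11.10 to 11.59, limma adjusted p = 0.00311), and PDIA3, a folding enzyme of the endoplasmic reticulum, was low in both (9.79 and 9.74 against 10.51 to 10.93, limma adjusted p = 0.00168). Of 29 cytokines and chemokines measured, 7 had an SD above 0.5, and none passed in the set contrast. CXCL2, a neutrophil attractant, read 9.38 in MI 7 and 5.94 to 7.22 elsewhere. The metallothionein gene MT3 read 7.69 in MI 5 and 9.30 to 10.53 in the other animals.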
